A study of Mus musculus with 8 samples.

Results

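The Hox genes are 39 of the 21887 protein-coding mouse genes of the annotation used here. They were chosen by symbol alone, as every protein-coding gene named Hoxa, Hoxb, Hoxc or Hoxd with a number. They lie in 4 clusters on GRCm38.p6, the assembly of build mm10. HoxA holds 11 genes on chr6:52155367-52260880, HoxB 10 genes on chr11:96194316-96368254, HoxC 9 genes on chr15:102921131-103036856 and HoxD 9 genes on chr2:74668225-74765142. The measurement was acetylation of histone H3 at lysine 27 (H3K27ac), a mark of active promoters and enhancers, mapped by ChIPmentation, in which antibody-bound chromatin is tagged with sequencing adapters by a transposase. Activated satellite cells (ASC) came from skeletal muscle of C57BL/6 mice injured with BaCl2 and taken 2.5 days later, and freshly isolated satellite cells (FISC) came from C57BL/6 skeletal muscle with no treatment. Satellite cells are the stem cells of muscle. Each condition had 2 H3K27ac libraries, and the 4 input libraries of the series were not used here. The labels do not name the muscle, give no transgene or allele, and do not say whether replicates came from separate animals, so a p-value here speaks of the spread among the 4 libraries alone, part or all of which could be technical.

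Hox genes encode homeodomain transcription factors that give cells their position along the head-to-tail axis and along the limbs. The clusters arose by duplication, so that genes of different clusters with the same number form a paralogue group, and low-numbered genes act towards the head while groups 9 to 13 act towards the tail and in the limb ends. Silent Hox chromatin usually carries methylation of the same lysine 27, placed by Polycomb complexes, which acetylation of that residue precludes. Cells of adult muscle keep Hox expression that reflects where in the body they formed.

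The deposited peak list of each library gave the bases under peaks, called covered bases below. Their number per library was 49.2 and 57.7 Mb in ASC, against 34.4 and 33.7 Mb in FISC, a ratio of means of 1.57 that forms the background to every value below. Peaks numbered 50154 and 54700 in ASC, against 45014 and 43092 in FISC. The lists hold no read counts, so read depth is not known here, and coverage cannot tell fewer cells with a mark from less mark per cell. Of 10 fixed markers of muscle stem cells, 9 had covered bases within 2 kb of the start in each ASC library and 10 in each FISC library, with sums of 23.7 and 24.8 kb in ASC and 23.0 and 23.1 kb in FISC. Within these sums limma called Itga7 (adjusted p = 0.00134) and Vcam1 (0.0267) higher in ASC. Calcr was called lower, with 0 kb in ASC against 1.31 and 0.947 kb in FISC (adjusted p = 0.00707). Divided by library totals, 1 of the 10 windows was called higher and 7 lower, against 7.74% and 39.6% over all genes. With lists shortened to equal covered length, 1 was higher and 2 lower, against 17.3% and 12.6%. Sums over 8 fibro-adipogenic markers were 2.20 and 3.43 kb in ASC, against 2.37 and 2.27 kb in FISC, with Pdgfra, Dcn, Lum, Col1a1, Tcf21 and Pi16 at 0. That sum holds changes in both directions by limma: Ly6a had 1.44 and 2.17 kb in ASC and 0 kb in FISC (adjusted p = 0.00808), and Dpt 0.762 and 1.26 kb in ASC against 2.37 and 2.27 kb in FISC (adjusted p = 0.0105). Over its whole gene span Pdgfra was covered over 0.601 and 0.700% in ASC and 0% in FISC (adjusted p = 0.0135). Over 8 endothelial markers the window sums were 0.602 and 0.814 kb in ASC against 0.774 and 1.18 kb in FISC, with 6 at 0. By span Cdh5 was covered over 7.89 and 9.11% in ASC and 0% in FISC (adjusted p = 0.00571), the 1 call among 5 tested endothelial spans. Pecam1 (5.72 and 6.35% in ASC, 7.27 and 7.95% in FISC) and Egfl7 (3.83 and 4.76% against 5.48 and 5.61%) were lower in ASC. Cldn5 was also lower on average and Vwf higher. Divided by library totals, 1 of the 5 spans was called higher and 3 lower, with the same counts at equal covered length. For 8 myeloid markers the sums were 1.60 and 3.02 kb in ASC and 1.18 and 0.954 kb in FISC, with Ptprc, Adgre1, Itgam, Lyz2 and Tyrobp at 0, and Spi1 was called higher by span. All 8 lymphoid markers were at 0. Smooth muscle and pericyte markers, some of them shared with muscle cells, summed to 8.57 and 9.53 kb in ASC and 10.9 and 9.78 kb in FISC, with 2 of 8 at 0. Of these, Pdgfrb and Cspg4 were called lower by window, while Acta2 and Cspg4 were called higher and Myh11 lower by span. The part of other cells in the Hox results was not tested.

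Start sequences of 4 genes are shown because they stand for the 4 patterns of coverage described below. Each runs from 250 bases before to 50 bases after the start in RefSeq (GRCm38.p6), 5′ to 3′ on the gene's strand, with every CpG in capitals. Hoxa11 (chr6:52245761-52246060, minus strand) lay wholly under peaks in both ASC libraries and in neither FISC library. Hoxd9 (chr2:74697513-74697812, plus strand) had 0 bases under peaks in both ASC libraries, against 214 and 0 in FISC. Hoxb4 (chr11:96318017-96318316, plus strand) was uncovered in all 4 libraries, and Hoxc4 (chr15:103034145-103034444, plus strand) was covered over its 300 bases in all 4.
Hoxa11: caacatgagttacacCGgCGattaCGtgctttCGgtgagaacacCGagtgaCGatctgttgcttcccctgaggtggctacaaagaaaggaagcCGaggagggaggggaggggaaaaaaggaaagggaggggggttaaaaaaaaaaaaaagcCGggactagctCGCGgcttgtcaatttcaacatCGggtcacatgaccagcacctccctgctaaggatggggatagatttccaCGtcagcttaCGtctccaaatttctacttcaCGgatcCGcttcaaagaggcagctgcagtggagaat
Hoxd9: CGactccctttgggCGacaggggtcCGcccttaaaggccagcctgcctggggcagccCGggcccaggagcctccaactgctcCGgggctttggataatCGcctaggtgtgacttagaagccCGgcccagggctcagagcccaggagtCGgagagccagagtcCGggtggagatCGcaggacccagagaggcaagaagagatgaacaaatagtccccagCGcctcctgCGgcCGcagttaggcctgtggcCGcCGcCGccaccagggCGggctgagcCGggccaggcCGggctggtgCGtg
Hoxb4: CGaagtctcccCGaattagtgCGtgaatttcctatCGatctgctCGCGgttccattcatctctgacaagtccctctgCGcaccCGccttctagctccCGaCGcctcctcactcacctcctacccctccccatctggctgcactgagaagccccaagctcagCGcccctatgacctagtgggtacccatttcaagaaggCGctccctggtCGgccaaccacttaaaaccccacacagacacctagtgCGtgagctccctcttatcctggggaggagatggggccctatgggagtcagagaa
Hoxc4: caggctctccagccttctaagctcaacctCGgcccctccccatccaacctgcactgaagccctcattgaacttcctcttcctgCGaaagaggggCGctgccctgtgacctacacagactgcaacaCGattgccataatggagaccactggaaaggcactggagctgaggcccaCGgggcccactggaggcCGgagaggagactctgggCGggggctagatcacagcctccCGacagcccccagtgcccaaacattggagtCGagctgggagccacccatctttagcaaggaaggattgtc
The CpG counts of these sequences were 15 in Hoxa11, 20 in Hoxd9, 14 in Hoxb4 and 9 in Hoxc4, against a median of 7 over the 32851 start sequences of the RefSeq table. The table held 24 sequences for 22 of the 39 Hox genes, with 4 to 45 CpGs each and a median of 14.5. A median of 20 CpGs was found in the 9 Hox sequences that touched a peak in any library, and of 13 in the 15 that touched none. Of letters searched on both strands, with overlapping matches counted, TGATTNAT (a site of PBX and HOX dimers) was in 2 of the 24 and in 3.22% of all sequences, TGACAG (MEIS) in 2 and 19.2%, and TATAAA in 4 and 13.6%.

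Whole clusters differed widely in coverage, in both conditions. From 50 kb before the first to 50 kb past the last gene, HoxA had 32.2 and 35.2 kb under peaks in ASC, against 20.8 and 19.4 kb in FISC. HoxC was the most covered cluster, with 49.4 and 54.6 kb in ASC, against 47.9 and 46.0 kb in FISC. HoxD had 1.56 and 1.68 kb in ASC, against 2.92 and 2.11 kb in FISC. In HoxB no base between the outer ends of its 10 genes was covered in any library, and the 3.08 and 3.16 kb of ASC and the 0 and 0.234 kb of FISC all lay in the flank beyond Hoxb1. With flanks of 50 kb the groups did not overlap in any cluster, and each difference had an exact 2-sided permutation p of 0.33, the smallest that 2 libraries against 2 allow. With flanks of 100 kb they overlapped in HoxC, with means of 53.1 kb in ASC and 51.6 kb in FISC, and in HoxD, with 4.01 kb in ASC and 4.13 kb in FISC (exact 2-sided permutation p = 1 for each). Leaving out 1 library at a time put the HoxC difference between 2.44 and 7.63 kb and the HoxD difference between −1.30 and −0.488 kb.

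**Figure D1:**
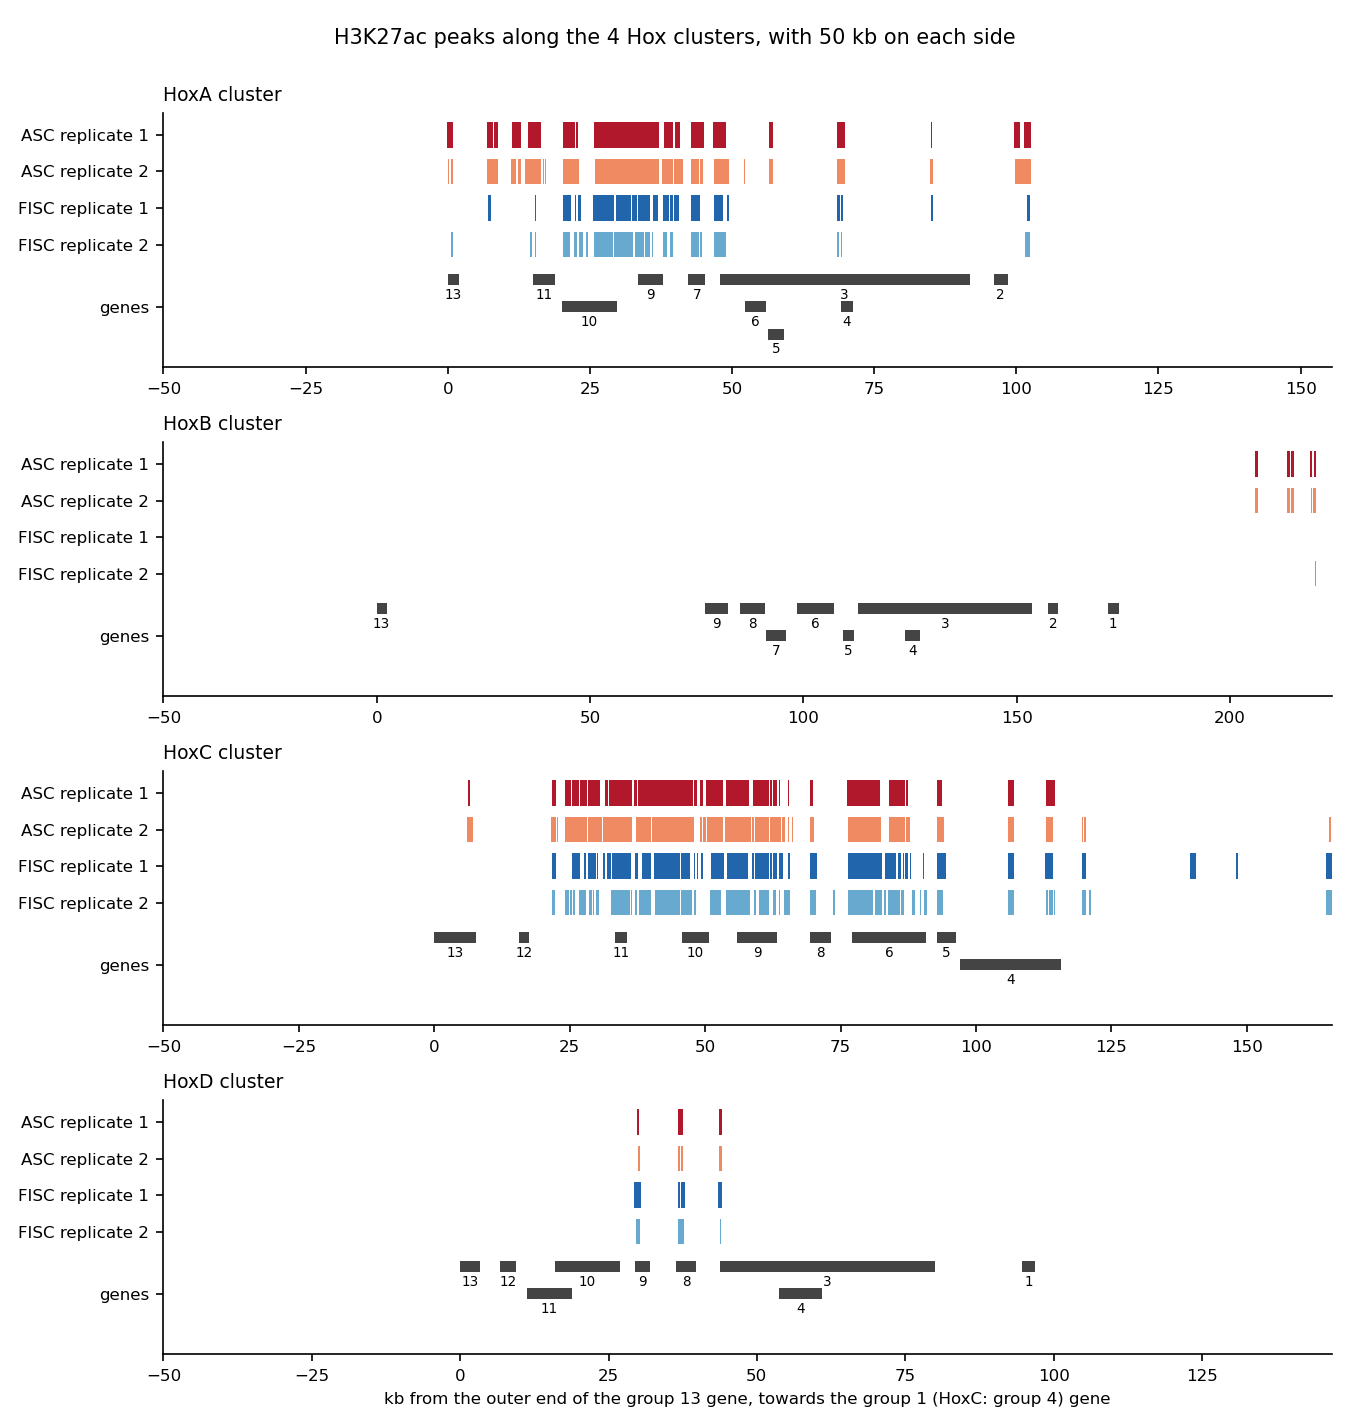
H3K27ac peaks along the HoxA, HoxB, HoxC and HoxD clusters in 2 ASC and 2 FISC libraries, with distance in kb from the outer end of the group 13 gene on the horizontal axis, coloured bars for peaks and grey bars for 38 Hox genes numbered by paralogue group. HoxA and HoxC are densely covered, HoxD holds 3 or 4 narrow peaks per library, and the HoxB genes lie in a stretch without peaks.

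Coverage of HoxA was 33.7 ± 2.10 kb in ASC and 20.1 ± 0.957 kb in FISC (SD, n = 2 each), a ratio of 1.68, against 1.57 for all peaks. HoxC had 52.0 ± 3.67 kb in ASC and 47.0 ± 1.29 kb in FISC, a ratio of 1.11. HoxD had 1.62 ± 0.082 kb in ASC and 2.51 ± 0.573 kb in FISC, a ratio of 0.644. Set against each library's own covered bases, the clusters differed. HoxA held 0.0656 and 0.0610% of all covered bases in ASC, against 0.0604 and 0.0575% in FISC, a narrow gap between the groups. HoxC held 0.100 and 0.0946% in ASC, against 0.139 and 0.136% in FISC. The HoxD share was 0.00318 and 0.00291% in ASC, against 0.00849 and 0.00625% in FISC. The sign for HoxC thus depended on scale: more kb in ASC, a smaller share of the library in ASC (exact 2-sided permutation p = 0.33 each). HoxA stayed higher and HoxD lower in ASC on both scales, with flanks of 50 kb.

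Ratios between clusters do not change when a library is divided by its total. HoxA had 0.653 and 0.645 times the covered kb of HoxC in ASC, against 0.434 and 0.422 in FISC, and with lists shortened to equal covered length 0.710 and 0.683 times in ASC, against 0.428 and 0.422 in FISC. Of all covered bases in the 4 clusters, HoxA held 37.4 and 37.2% in ASC and 29.0 and 28.6% in FISC, while HoxC held 57.3 and 57.7% in ASC and 66.9 and 67.9% in FISC. The balance thus lay further towards HoxA in both ASC libraries than in either FISC library (exact 2-sided permutation p = 0.33 for each ratio and share).

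Gene by gene, coverage was given as the percent of the span from annotated start to end that lay under peaks. Of the 39 Hox genes, 17 (43.6%) were covered in all 4 libraries, 18 (46.2%) in none and 4 in 1 to 3. Over all protein-coding genes, 54.9% were covered in all 4 libraries and 34.5% in none. The 17 were 7 genes of HoxA, 7 of HoxC and 3 of HoxD. The 18 were Hoxa2, Hoxc12, all 10 HoxB genes and 6 HoxD genes (Hoxd1, Hoxd4, Hoxd10, Hoxd11, Hoxd12 and Hoxd13). Groups 2 and 12 had no covered member in any cluster. Spans of 10 Hox genes overlap another Hox gene, so their values are not independent: the annotated span of Hoxa3 takes in Hoxa4, Hoxa5 and Hoxa6, and those of Hoxb3 and Hoxb4, Hoxd3 and Hoxd4, and Hoxd10 and Hoxd11 also overlap.

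**Figure D2:**
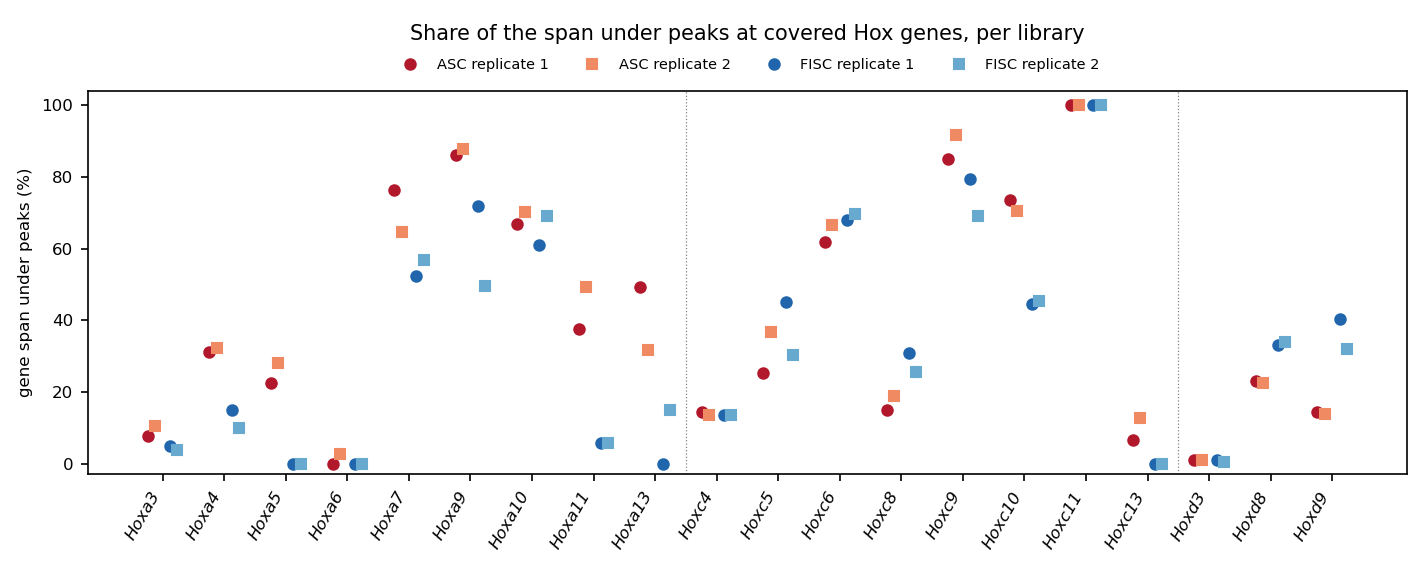
Percent of the gene span under H3K27ac peaks (vertical axis) in each of 2 ASC and 2 FISC libraries for 20 of the Hox genes covered in at least 1 library, in the order HoxA, HoxC and HoxD, 1 point per library. ASC points lie above FISC points at most HoxA genes, Hoxc11 is at 100% in all 4 libraries, and Hoxd8 and Hoxd9 have the FISC points on top.

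Differences were tested with limma over all genes covered in at least 2 libraries, with adjusted p-values (Benjamini-Hochberg) below 0.05 called. Of 13726 genes tested, 30.6% were called, 26.2% higher and 4.50% lower in ASC. Among the Hox genes, 20 were tested, 6 were called higher (4 in HoxA, 2 in HoxC), 2 lower (both in HoxD) and 12 not called. The ASC and FISC libraries did not overlap for 11 Hox genes with ASC higher and 4 with ASC lower, all among the 20 tested, against 61.4% and 12.5% of all genes tested. Uncovered genes included, the difference had a median of 0 points over the 39 Hox genes and of 0.00683 over the 21887 protein-coding genes, with 16.0 over the 11 of HoxA and 0 in each other cluster. When coverage was divided by each library's total, the 3590 higher and 617 lower calls over all genes became 2061 and 3054, the median difference of all genes became −0.69 points, and the Hox calls became 3 higher and 7 lower. With lists shortened to equal covered length, 1633 genes were called higher and 2079 lower, with 3 and 4 Hox genes among them.

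Coverage within 2 kb of the start, a window of 4.0 kb, gave a second measure that does not grow with gene length. Of 12641 genes tested by limma, 30.1% were called, 26.6% higher and 3.51% lower in ASC, and the groups did not overlap in 62.2% with ASC higher and in 10.4% with ASC lower. Of the 39 Hox genes, 20 were tested, and 9 were called higher and 2 lower. Divided by each library's total, the 3363 higher and 444 lower calls over all genes became 979 and 5008, the median difference moved to −0.36 kb from 0.28 kb, and the Hox calls became 4 higher and 10 lower. At equal covered length there were 2057 higher and 1497 lower calls, 5 and 4 of them Hox genes. Over both measures, 10 Hox genes were called higher at least once and 3 lower. Hoxa4, Hoxa5 and Hoxa11 were among those called higher by both, and Hoxd9 lower by both. For Hoxc13 and 6 other HoxC genes the start was taken as the gene end with more covered bases, and by the plus strand of the cluster Hoxc13 starts at its other end, where the window was not tested, so its window call stands in the counts alone.

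In HoxA, 4 genes were called by span and 7 by start window, all higher in ASC. Hoxa11, which with its HoxD paralogue shapes the forearm and lower leg, had 37.7 and 49.4% of its span covered in ASC, against 5.75% in both FISC libraries, a difference of 37.8 points (SE 4.69, adjusted p = 0.0131). Its start window held 2.33 and 3.12 kb in ASC, against 0.213 and 0.508 kb in FISC. The groups stood far apart on both measures. Hoxa5, which patterns the neck-to-thorax transition and the lung, had 22.5 and 28.2% covered in ASC and 0% in both FISC libraries (25.3 points, SE 2.28, adjusted p = 0.00788). Both genes also kept their calls when coverage was divided by each library's total. At equal covered length Hoxa11 kept its calls and Hoxa5 was not tested. Both genes lost their calls by span when either FISC replicate was left out, with adjusted p of 0.0860 to 0.108. Without either ASC replicate Hoxa5 was not tested, since it then had coverage in 1 library alone.

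Hoxa4, a gene of the neck region, had 31.1 and 32.1% covered in ASC, against 14.99 and 9.89% in FISC (19.2 points, SE 2.58, adjusted p = 0.0153), and its call was lost when divided by library totals (adjusted p = 0.0532), at a fold enrichment of at least 5 (0.0626) and without ASC replicate 2 (0.0668) or either FISC replicate (0.0955 and 0.131).

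Groups 9 and 10 of HoxA were already mostly covered in FISC. Hoxa9, a gene of the trunk and upper limb that has been linked to aged satellite cells in mice, had 86.2 and 87.9% of its span covered in ASC, against 71.8 and 49.6% in FISC (26.4 points, SE 8.17, adjusted p = 0.0849, not called). Its window was fully covered in both ASC libraries, against 3.62 and 3.45 kb in FISC (adjusted p = 0.0224). With the window full in ASC and nearly full in FISC, division by the larger ASC totals turned its difference negative. The span difference of Hoxa9 turned as well, to −6.17 points, without a call. Hoxa10, which acts in the lumbar region and the limb, had 66.9 and 70.2% covered in ASC, against 61.1 and 69.0% in FISC, and these groups overlapped (3.5 points, SE 3.59, adjusted p = 0.489). Its window at the outer start held 1.83 kb in both ASC libraries, against 1.37 and 1.35 kb in FISC (0.474 kb, SE 0.121, adjusted p = 0.0396). Divided by library totals, the window difference turned round for Hoxa9 (−1.25 kb) and Hoxa10 (−0.236 kb), and both calls were lost when either ASC replicate was left out (adjusted p = 0.0518 and 0.0667 for Hoxa9, 0.0658 and 0.0918 for Hoxa10). The Hoxa10 call was also lost without either FISC replicate (0.174 and 0.194). Of the start sequences of Hoxa10, the inner one (chr6:52234890-52235189) had 230 and 116 bases under peaks in ASC, against 300 and 294 in FISC, and the outer one (chr6:52240805-52241104) had none in any library.

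Hoxa13, a gene of hands, feet and the urogenital tract, had 49.4 and 31.8% of its span covered in ASC, against 0 and 15.1% in FISC (33.1 points, SE 8.60, adjusted p = 0.0594). Its window held 1.08 and 0.680 kb in ASC, against 0 and 0.306 kb in FISC (0.726 kb, SE 0.180, adjusted p = 0.0373), and the call ended when divided by library totals (0.0531), with a window of 1 kb (0.0979), without ASC replicate 1 (0.0981) or without either FISC replicate (0.175 and 0.0994). The other HoxA genes were not called. Hoxa7 was 76.4 and 64.6% covered in ASC, against 52.3 and 56.7% in FISC, and Hoxa3 7.57 and 10.4% against 4.87 and 3.76%. Neither pair of groups overlapped, and ASC was higher in both as deposited. Divided by library totals, Hoxa7 turned to −11.6 points by span and −0.208 kb by window, without a call. At equal covered length its window difference was −0.131 kb, also uncalled. Hoxa6 was covered in ASC replicate 2 alone, over 2.73% of its span, and was not tested.

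The widest Hox peak joined Hoxa9 and Hoxa10. In ASC it ran 11.4 and 11.3 kb (chr6:52223685-52235119 and chr6:52223671-52235005), and only 7 of the 50154 peaks of that list and 30 of the 54700 of ASC replicate 2 were wider. In each FISC library 5 separate peaks lay under it, and the widest HoxA peak there, at Hoxa10, measured 3.65 and 3.36 kb (chr6:52231645-52235293 and chr6:52231829-52235183). HoxA had about as many peaks in both conditions, 18 and 21 in ASC and 20 in each FISC library, but its median peak was 1090 and 1133 bases wide in ASC, against 645.5 and 571 bases in FISC. More coverage in HoxA came with wider peaks, not with more of them. Over whole lists the median peak was also wider in ASC, with 603 and 615 bases against 497 and 515 bases in FISC.

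In fixed 5 kb bins, limma called 48.7% of 46344 tested bins, 38.0% higher and 10.7% lower in ASC, and the groups did not overlap in 60.4% with ASC higher and in 19.2% with ASC lower. The regions of the 4 clusters held 45 tested bins, 16 called higher and 5 lower. Divided by library totals, the 17616 higher and 4942 lower calls over all bins became 14162 and 11374, and those of the clusters 8 and 15. At equal covered length they were 6558 and 9918 over all bins, with 5 and 11 in the clusters. In HoxA 10 of 16 tested bins were called, all higher, and of these the bins of Hoxa7 and Hoxa9 turned lower when divided by library totals (−0.182 and −1.36 kb). The Hoxa9 bin, full in both ASC libraries with 4.39 and 4.15 kb in FISC, was called lower on that scaling (limma adjusted p = 0.0414). At equal covered length the Hoxa9 bin stayed called higher (0.73 kb, limma adjusted p = 0.0329), and that of Hoxa7 was higher without a call (0.225 kb). Of the called bins, the largest difference lay at the start of Hoxa11 (chr6:52245001-52250000), with 3.33 and 3.68 kb covered in ASC, against 0.213 and 0.508 kb in FISC (3.15 kb, SE 0.199, adjusted p = 0.0046). The next was the gene-free bin between Hoxa11 and Hoxa13 (chr6:52250001-52255000), with 1.77 and 1.91 kb in ASC, against 0.562 and 0 kb in FISC. Of the other called bins, those named next differed by less than 1 kb. They began at chr6:52190001 (Hoxa4, 1.34 and 1.42 kb in ASC against 0.832 and 0.518 kb in FISC) and at chr6:52200001 (Hoxa5, 0.637 and 0.799 kb against 0 kb). Next came chr6:52215001 (Hoxa7, 2.25 and 2.32 kb in ASC against 1.54 and 1.67 kb in FISC) and chr6:52225001 (Hoxa9, fully covered in ASC against 4.39 and 4.15 kb). Towards the group 13 end lay chr6:52240001 (Hoxa10 and Hoxa11, 1.27 and 1.71 kb in ASC against 0.539 and 0.679 kb in FISC) and chr6:52260001 (Hoxa13, 0.955 and 0.646 kb against 0 and 0.252 kb).

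**Figure D3:**
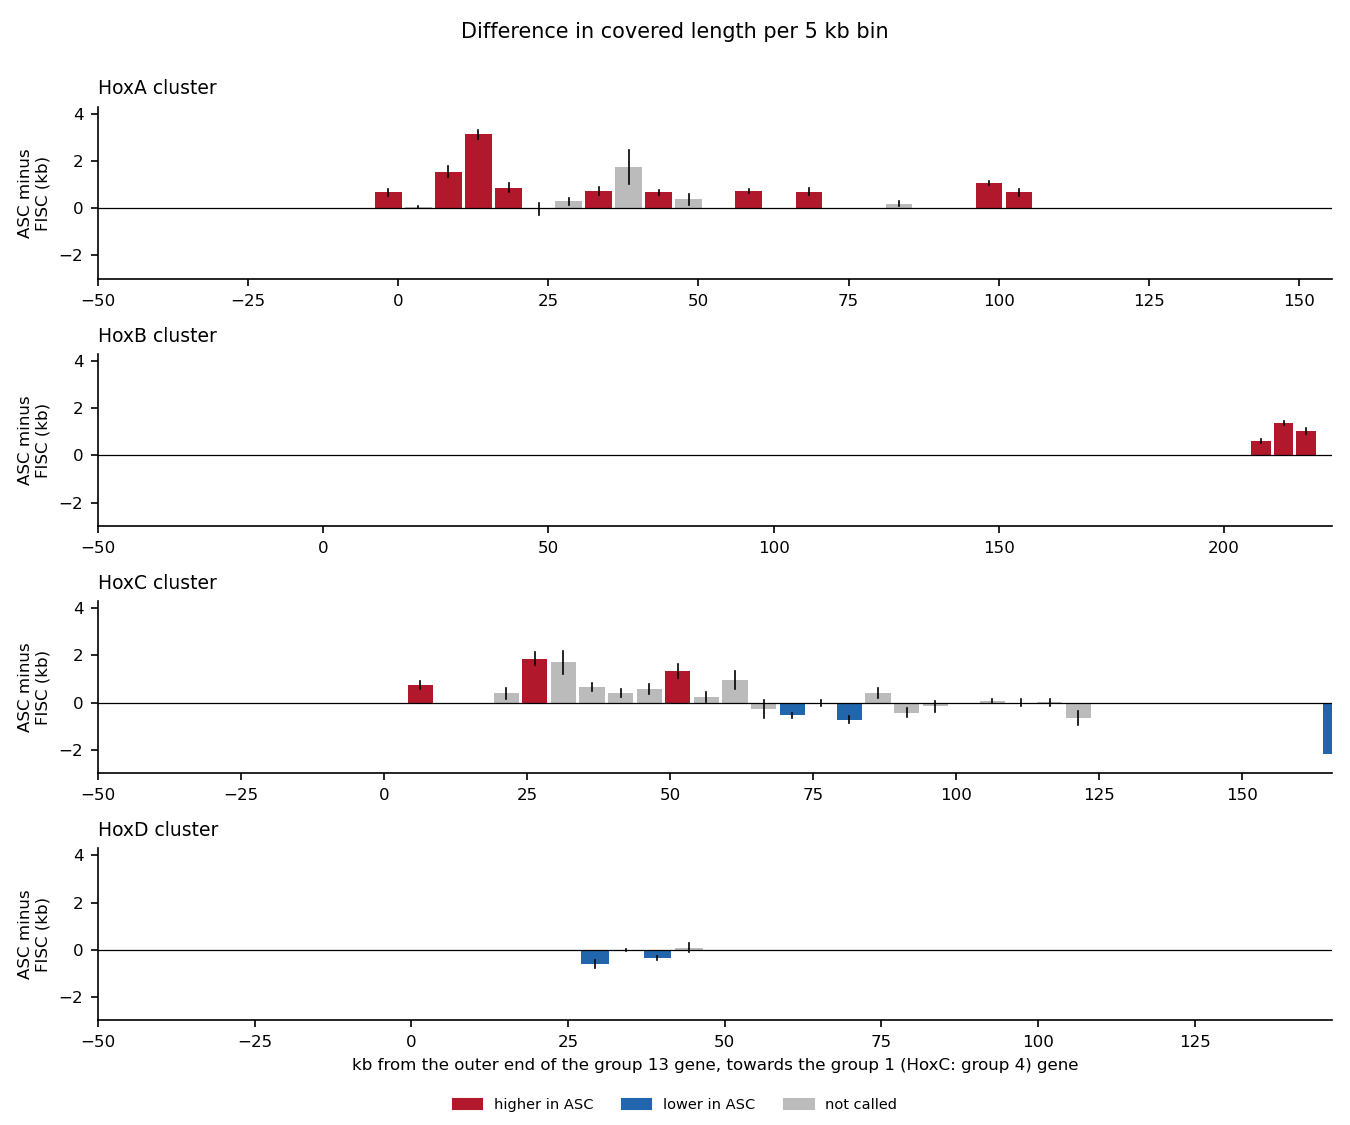
Difference in covered kb per 5 kb bin, ASC mean minus FISC mean (vertical axis), along the 4 clusters by distance in kb from the group 13 end (horizontal axis), with limma standard errors as lines and called bins in red (higher in ASC) or blue (lower). In kb as deposited, all 10 called HoxA bins lie above 0 and both called HoxD bins below 0. HoxC has 3 called bins above 0 on its group 9 to 13 side and 3 below 0 on the other side. When divided by library totals, 2 called HoxA bins and 1 of the called higher HoxC bins turn lower. At equal covered length the called higher HoxC bins of Hotair and past Hoxc10 are called lower.

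In HoxC, 2 genes were called higher by span, and 2 higher and 1 lower by start window. Hoxc10, a gene of the lumbar region and hindlimb, had 73.5 and 70.6% of its span covered in ASC, against 44.5 and 45.3% in FISC (27.1 points, SE 2.67, adjusted p = 0.00894). That difference fell to −1.56 points with lists of equal covered length and to 1.72 points when divided by library totals, and it was not called in either. The call was also lost at a −log10 q of at least 5 (adjusted p = 0.132) or a fold of at least 5 (0.209) and without either FISC replicate (0.0830 and 0.0878). Hoxc13, known for its part in hair and nail growth, had 6.68 and 12.7% covered in ASC and 0% in both FISC libraries (9.69 points, SE 2.21, adjusted p = 0.0452). Its call also went at a −log10 q of at least 5 (0.0547), with peaks joined within 500 bases (0.0574), with genes covered in at least 1 library tested (0.0571) and without either FISC replicate (0.180 and 0.186).

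Hoxc11, a gene of the sacral region and hindlimb, was covered over 100% of its span in all 4 libraries, the highest of all Hox genes. Its start window held 3.89 and 4.0 kb in ASC, against 3.35 and 2.64 kb in FISC (0.951 kb, SE 0.238, adjusted p = 0.0380). That difference was −0.596 kb when divided by library totals, with the window full or nearly full in ASC. The window call was also lost with lists of equal covered length (0.245), at a −log10 q (0.192) or fold (0.0541) of at least 5, with joined peaks (0.347), with a window of 1 kb (0.0983) and without ASC replicate 2 (0.0862). Hoxc8, which specifies thoracic identity and brachial motor neurons, lay the other way. Its window held 0.639 and 0.762 kb in ASC, against 1.19 and 1.08 kb in FISC (−0.432 kb, SE 0.115, adjusted p = 0.0444), and 14.9 and 18.9% of its span was covered in ASC, against 30.8 and 25.5% in FISC (adjusted p = 0.0633, not called). The window call of Hoxc8 was lost without each replicate in turn (0.0799 to 0.183), at either stricter peak threshold (0.306 and 0.318), with the replicate number as a block (0.0767) and with windows of 1 kb (0.0696) or 5 kb (0.129).

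Other HoxC genes were covered in all 4 libraries without a call, apart from the uncovered Hoxc12. Hoxc9 had 84.9 and 91.7% of its span covered in ASC, against 79.5 and 69.0% in FISC (adjusted p = 0.0961). The Hoxc9 difference turned to −22.8 points divided by library totals and to −5.47 points at equal covered length, uncalled in both. Hoxc6 had 61.9 and 66.5% in ASC, against 68.0 and 69.8% in FISC, and Hoxc5 had 25.4 and 36.8% against 45.1 and 30.3%. Hoxc4 hardly moved, with 14.5 and 13.5% in ASC and 13.6% in both FISC libraries (0.424 points, SE 1.11, adjusted p = 0.791, −5.88 points when divided by library totals).

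HoxC had fewer and wider peaks in ASC. Its peaks numbered 29 and 30 in ASC, against 43 and 44 in FISC. Their median width was 1020 and 992 bases in ASC, against 620 and 570 bases in FISC (603 and 615 against 497 and 515 bases over whole lists). The widest, upstream of and into Hoxc10 (chr15:102961390-102968896 and chr15:102961405-102969121), measured 7.51 and 7.72 kb in ASC, and the widest of FISC, which lay within it and reached no coding gene, 4.96 and 4.66 kb (chr15:102961603-102966563 and chr15:102961827-102966484). By the authors' fold enrichment, the highest HoxC peak of every ASC library was the one at Hoxc6, with 30.4 and 26.2, and that of every FISC library was at Hoxc9, with 14.8 and 15.2.

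Along HoxC the difference changed sign between its ends. Groups 9 to 13 had 35.6 and 39.1 kb covered in ASC, against 29.2 and 28.2 kb in FISC, while groups 4 to 8 had 13.8 and 14.5 kb in ASC, against 15.4 and 15.6 kb in FISC. The flank beyond Hoxc4 had 0 and 0.990 kb in ASC, against 3.23 and 2.21 kb in FISC. Of all HoxC covered bases, groups 9 to 13 thus held 72.1 and 71.6% in ASC, against 61.1 and 61.2% in FISC, a share that does not change with the total of a library (10.7 points, exact 2-sided permutation p = 0.33) and that stayed higher in ASC under each alternative run. The kb of groups 9 to 13 did change sign, to −2.87 kb at equal covered length and −6.23 kb divided by library totals. The kb of groups 4 to 8, lower by 1.37 kb, became 0.312 kb higher in ASC at a −log10 q of at least 5 and 1.39 kb higher at a fold of at least 5. In HoxA the same share was 69.3 and 67.5% in ASC, against 72.0 and 73.5% in FISC (−4.33 points, exact 2-sided permutation p = 0.33). At equal covered length the difference shrank to −1.02 points with overlapping groups (exact 2-sided permutation p = 0.67). Divided by library totals, the covered length of HoxA groups 9 to 13 averaged 18.9 kb in ASC and 18.8 kb in FISC, with overlapping groups.

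**Figure D4:**
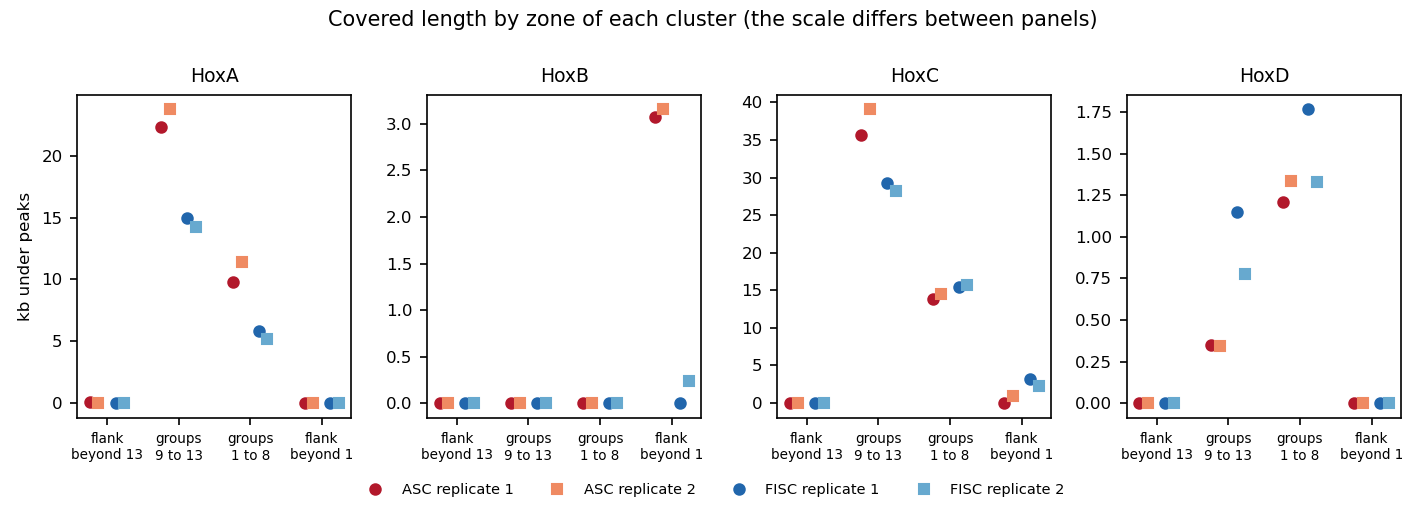
Covered length in kb (vertical axis, with its own scale in each panel) in 4 zones of each Hox cluster, 1 point for each of 2 ASC and 2 FISC libraries. In HoxA both gene zones are higher in ASC as deposited. Divided by library totals, HoxA groups 9 to 13 average 18.9 kb in ASC and 18.8 kb in FISC. In HoxC the zone of groups 9 to 13 is higher in ASC as deposited and lower when divided by library totals. The HoxC zone of groups 4 to 8 and the flank beyond Hoxc4 are lower in ASC. In HoxD both ASC libraries lie below FISC in groups 9 to 13.

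Of the bins called in HoxC, 3 on the side of groups 9 to 13 were higher and 3 on the other side lower. Higher in ASC were the bin of Hoxc13 (chr15:102925001-102930000, 0.513 and 0.976 kb in ASC, 0 kb in FISC), that of Hotair (chr15:102945001-102950000, 4.31 and 4.70 kb against 2.33 and 2.94 kb) and that past Hoxc10 (chr15:102970001-102975000, 3.60 and 3.93 kb against 2.74 and 2.12 kb). Lower were the bin of Hoxc8 (chr15:102990001-102995000, 0.639 and 0.762 kb in ASC, 1.19 and 1.29 kb in FISC), 1 in Hoxc6 (chr15:103000001-103005000, 3.39 and 3.56 kb against 4.31 and 4.09 kb) and 1 at the far end of the flank beyond Hoxc4 (chr15:103085001-103090000, 0 and 0.272 kb against 2.20 and 2.46 kb). The last was the largest called fall of all Hox bins, by 2.2 kb (SE 0.171, adjusted p = 0.00518). Those of Hotair and Hoxc10 were called lower at equal covered length (−2.07 and −2.31 kb, limma adjusted p = 0.00959 and 0.00814). That of Hoxc10 also turned lower when divided by library totals (−0.0259 kb), without a call, while the lower bins stayed lower on both scalings.

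HoxD had less coverage in ASC with flanks of 50 kb, while the difference was −0.119 kb with flanks of 100 kb. It held 4 peaks in each ASC library and 4 and 3 in FISC, at Hoxd9, Hoxd8 and the start of Hoxd3. Hoxd9, a limb and lumbar gene of group 9, had 14.3 and 13.9% of its span covered in ASC, against 40.3 and 31.8% in FISC (−22.0 points, SE 3.68, adjusted p = 0.0237). Its window held 0.350 and 0.341 kb in ASC, against 1.15 and 0.779 kb in FISC (−0.619 kb, SE 0.150, adjusted p = 0.0348). Hoxd8 had 23.0 and 22.4% covered in ASC, against 33.1 and 34.0% in FISC (−10.8 points, SE 2.35, adjusted p = 0.0405), with a window of 0.765 and 0.743 kb against 1.098 and 1.13 kb (adjusted p = 0.0545). Hoxd3, the third covered gene, had 0.874 and 1.14% of its long span covered in ASC, against 1.09 and 0.551% in FISC, and these groups overlapped (adjusted p = 0.582).

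Each library had 1 peak at Hoxd9, and both ASC peaks lay within those of FISC and were narrower. They measured 350 and 341 bases in ASC (chr2:74698029-74698378 in replicate 1), against 1150 and 779 bases in FISC (chr2:74697599-74698748 in replicate 1). The widest HoxD peaks were at Hoxd8 in ASC replicate 1 (chr2:74705312-74705771) and Hoxd3 in ASC replicate 2 (chr2:74711814-74712406), against the Hoxd9 peak in FISC replicate 1 and Hoxd8 in FISC replicate 2 (chr2:74704890-74706017). The 5 kb bins of Hoxd9 (chr2:74695001-74700000, −0.619 kb, SE 0.161, adjusted p = 0.0463) and Hoxd8 (chr2:74705001-74710000, −0.351 kb, SE 0.0923, adjusted p = 0.0474) were called lower. Leaving out any 1 replicate ended the span calls of Hoxd9 (adjusted p = 0.0814 to 0.105) and Hoxd8 (0.0868 to 0.222), without a change of direction, and the call of Hoxd8 was also lost at a fold of at least 5 (0.0609), with joined peaks (0.113) and with the replicate number as a block (0.106). The window call of Hoxd9 was lost with joined peaks (0.0577), with a window of 1 kb (0.0820) and without each replicate in turn (0.0563 to 0.139). Divided by library totals or at equal covered length, both genes stayed lower in ASC and called by span.

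HoxB, whose genes pattern the head-to-trunk axis in the embryo, carried no peak at any of its 10 genes. The peak-free stretch round them ran 299.9 kb in all 4 lists together, from base 96100311 to base 96400237 of chromosome 11, and 1254 of the 72525 gaps between peaks in the genome were at least that long. Beyond Hoxb1, 5 peaks in each ASC library stood 31.98 to 45.7 kb away, outside any gene. FISC replicate 1 had none of them and FISC replicate 2 a single one of 234 bases (chr11:96414198-96414431), 45.9 kb away. The widest in ASC measured 0.821 and 0.729 kb (chr11:96407602-96408422 and chr11:96413874-96414602). All 3 tested bins there were called higher, at chr11:96400001-96405000 (0.553 and 0.672 kb in ASC, 0 kb in FISC), chr11:96405001-96410000 (1.35 and 1.39 kb in ASC, 0 kb in FISC) and chr11:96410001-96415000 (1.18 and 1.1 kb in ASC, 0 and 0.234 kb in FISC). At equal covered length the flank had 0 kb in ASC and 0.117 kb in FISC on average, a difference of −0.117 kb. Divided by library totals it stayed higher in ASC, with means of 2.57 kb against 0.152 kb in FISC. On that scaling all 3 bins stayed called higher (limma adjusted p = 0.00544, 0.00505 and 0.0213).

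By paralogue group, group 9 was covered in 3 of its 4 genes (Hoxa9, Hoxc9 and Hoxd9) in all 4 libraries. Groups 10 and 11 were covered in HoxA and HoxC and not in HoxD. Hoxa9 was higher in ASC by start window as deposited, while Hoxd9 was lower on each scaling. Divided by library totals the Hoxa9 window was lower, with a full window in both ASC libraries and 3.62 and 3.45 kb in FISC as deposited. In group 8, Hoxc8 was lower by window and Hoxd8 by span, and Hoxb8 was uncovered. In group 13, Hoxa13 was called higher in ASC by window and Hoxc13 by span, while Hoxb13 and Hoxd13 were uncovered. Counted over all clusters, 9 of the 16 genes of groups 9 to 13 and 12 of the 23 genes of groups 1 to 8 were covered in any library.

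Noncoding genes inside the clusters were described by the percent of their span under peaks. Hoxa11os, antisense to Hoxa11, had 68.2 and 76.0% covered in ASC, against 4.71 and 11.2% in FISC. Hotair, the HoxC RNA studied for silencing of HoxD in human fibroblasts, had 63.6 and 70.8% in ASC, against 33.8 and 38.2% in FISC. For each of these the groups stood apart (exact 2-sided permutation p = 0.33). Hottip, beyond Hoxa13, was uncovered in all 4 libraries, as was Haglr in HoxD. Peaks carry no strand, so coverage of an antisense gene and of its partner cannot be told apart.

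The clusters also hold microRNA genes of the miR-196 and miR-10 families, whose mature sequences are shown because the same seed is encoded in covered and uncovered clusters. They are from RefSeq (GRCm38.p6), with the seed, bases 2 to 8, in capitals.
miR-196b-5p, HoxA: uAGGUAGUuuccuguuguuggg
miR-196a-5p, HoxB and HoxC: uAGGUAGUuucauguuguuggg
miR-10a-5p, HoxB: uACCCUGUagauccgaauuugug
miR-10b-5p, HoxD: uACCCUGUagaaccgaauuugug
The miR-196 family is known in mouse for cleaving the Hoxb8 transcript. Mir196b, between Hoxa9 and Hoxa10 (chr6:52230081-52230165), and Mir196a-2, between Hoxc10 and Hoxc9 (chr15:102973350-102973434), were under peaks over their full length in all 4 libraries. Mir196a-1 in HoxB (chr11:96265164-96265265), which encodes the same mature miR-196a-5p, had no covered base in any library. Both miR-10 genes, Mir10a in HoxB (chr11:96317165-96317274) and Mir10b in HoxD (chr2:74726070-74726137), were uncovered as well. The miR-196 seed thus had 2 of its 3 genes under peaks, and the miR-10 seed 0 of 2.

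Partners and regulators of Hox proteins were covered in both conditions. Of 10 genes of the TALE class, the homeodomain cofactors that bind DNA with Hox proteins, 3 of 9 tested start windows and 3 of 10 tested spans were called, all higher in ASC as deposited, against 26.6% of windows and 26.2% of spans over all genes. Divided by library totals, 5 of the 9 windows were called lower, against 39.6% over all genes (limma, with Meis1 at −0.375 kb and Pbx3 at −0.263 kb, neither called). Meis1 had 2.66 and 3.02 kb of its window covered in ASC, against 2.24 and 1.97 kb in FISC (adjusted p = 0.0365), and Pbx3 had 2.36 and 2.42 kb against 1.83 and 1.64 kb (adjusted p = 0.0244). Pknox1 and Pknox2 were called by span. Median differences over the tested genes of the list were 0.174 kb and 0.947 points, against 0.285 kb and 1.13 points over all genes tested. Among 8 upstream factors, Gdf11, a signal that turns on the tail-most Hox genes in the embryo, had 1.39 and 1.70 kb in ASC, against 0.581 and 0.509 kb in FISC (adjusted p = 0.0092), and it was called higher on both other scalings. Rarg, a retinoic acid receptor, had 1.45 and 1.38 kb in ASC, against 2.52 and 2.74 kb in FISC (adjusted p = 0.00566), and it was called lower on both other scalings. Cdx2 and Cdx4, homeobox genes that activate trunk Hox genes in the embryo, were uncovered.

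Among 17 Polycomb genes, 8 start windows and 4 spans were called, all higher in ASC as deposited, against the same 26.6% and 26.2%. After division by library totals, 3 windows were called higher and 7 lower, against 7.74% and 39.6% over all genes. At equal covered length 6 were higher and 1 lower, against 17.3% and 12.6%. Cbx7, which reads methylated lysine 27, had 2.56 and 2.68 kb in ASC, against 1.18 and 0.645 kb in FISC (adjusted p = 0.00594), and Cbx2, another reader, 1.82 and 2.59 kb against 0.609 and 0.413 kb (adjusted p = 0.0119). Suz12 and Eed, core subunits of the methylating complex, were also called, with 2.37 and 2.71 kb in ASC against 1.74 and 1.61 kb in FISC for Suz12 and 2.76 and 2.70 kb against 1.92 and 1.93 kb for Eed. Cbx7 and Cbx2 stayed higher on both other scalings, while Suz12 and Eed turned to −0.0724 and −0.218 kb when divided by library totals. The median window difference over the 17 was 0.390 kb as deposited. Of 8 trithorax and H3K27 demethylase genes, which oppose Polycomb, 4 windows were called higher (Kmt2b, Kdm6a, Psip1 and Ash1l), as were 3 of 6 boundary genes (Smc1a, Ctcf and Smc3), against 26.6% over all genes. After division by library totals, Smc1a alone of these genes stayed higher, without a call, and 4 of the 8 and 2 of the 6 were called lower, against 39.6% over all genes. At equal covered length 3 of the 8 and 2 of the 6 were called higher and 0 lower, against 17.3% and 12.6% over all genes. Of the 10 coding genes listed as neighbours of the clusters, Skap2 near HoxA, Lnpk near HoxD and Calcoco1 near HoxC were called higher by window, and Evx1, Evx2, Skap1 and Ttll6 were uncovered. Skap2 had 1.24 and 0.969 kb in ASC and 0 kb in FISC (adjusted p = 0.00504). Divided by library totals, the calls of Skap2 (adjusted p = 0.00468) and Calcoco1 (0.00805) remained and that of Lnpk was lost (0.169). At equal covered length Skap2 was not tested, and Lnpk (0.127) and Calcoco1 (0.192) were not called.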

How the data were processed

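H3K27ac ChIPmentation libraries of ASC (n = 2) and FISC (n = 2) were read as the peak lists that the authors deposited. Per the submitters' processing notes, reads of 75 bases went through bcl2fastq 2.19, BWA, Picard and MACS2 on mm10. Each list holds, per peak, the position, a score (the integer part of 10 times −log10 q in every peak), a fold enrichment over background, and −log10 p and −log10 q, all as deposited by the authors from MACS2, and peaks were called per library. The lists give no read counts, so no interval for counting error could be given, and an uncovered base says only that no peak was called there.

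Covered bases were counted per gene span, in the window from 2 kb before to 2 kb after the start, in 5 kb bins and per cluster with 50 kb on each side. Genes and start sequences came from RefSeq on GRCm38.p6. Starts were taken from that table for 22 of the 39 Hox genes, for 9 from the gene end with more covered bases and for 8 uncovered genes from the lower end. Features covered in at least 2 libraries were tested with limma 3.58.1 (R 4.3.3, linear scale, trended variance), with Benjamini-Hochberg adjustment over all features and a threshold of 0.05. Cluster values were compared by exact 2-sided permutation. The steps were tested on simulated data. Counting used Python 3.11.15, numpy 2.4.6 and pandas 2.3.3, and figures matplotlib 3.10.9. The members and lists were chosen with earlier results of these data known. Hox genes called by either measure were named with their values, as were the 2 of each cluster with the largest span difference and the most covered, called 5 kb bins, the widest peak of each library and cluster, and from the other lists up to 4 called genes by the size of the difference, with further called genes named alone. Alternatives covered peak thresholds, list length, scaling, joined peaks, filters, window and bin sizes, flanks, the replicate block and each replicate left out. Results for 1 Hox gene and 1 cofactor gene are not reported here, although both stay in the fits and counts.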

Additional observations from a re-analysis of the deposited data

How the results depend on the processing

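With lists of equal covered length, calls higher and lower in ASC went to 1633 and 2079 gene spans, 2057 and 1497 start windows and 6558 and 9918 bins, with 3 and 4, 5 and 4, and 5 and 11 in the Hox clusters. Divided by library totals, lower calls were 3054 spans, 5008 windows and 11374 bins, and higher calls 2061 spans and 979 windows, with 3 higher and 7 lower Hox spans, 4 and 10 Hox windows and 8 and 15 Hox bins. HoxC changed to −9.64 kb at equal covered length and −17.6 kb divided by totals, the 4 clusters together to −6.07 and −15.2 kb, HoxC groups 9 to 13 to −2.87 and −6.23 kb, and HoxB, with its flank beyond Hoxb1, to −0.117 kb at equal length. Single genes reversed when divided by totals were Hoxa10 (−27.2 points) and Hoxc4 (−5.88 points) by span, and by window Hoxa3 (−0.671 kb), Hoxa9 (−1.25 kb), Hoxa10 (−0.236 kb), Hoxc4 (−0.657 kb), Hoxc6 (−1.24 kb), Hoxc9 (−1.81 kb), Hoxc10 (−1.24 kb) and Hoxc11 (−0.596 kb), and at equal length Hoxc10 (−1.56 points by span). Of these windows, Hoxa9, Hoxc9 and Hoxc10 were full at 4.0 kb in both ASC libraries, and Hoxc11 in ASC replicate 2. A full window cannot grow with the totals, but the sign after division also depends on FISC, where these windows held 2.64 to 4.0 kb. HoxC groups 4 to 8 changed to 0.312 kb at a −log10 q of at least 5 and 1.39 kb at a fold of at least 5. The number of HoxC peaks differed by −16.5 with lists of equal peak number, against −14.0.

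At a −log10 q of at least 5, lower calls were 3057 bins, 1 Hox window and 3 Hox bins, and at a fold of at least 5 they were 319 spans, 282 windows and 1832 bins, with 1 Hox span, 1 Hox window and 3 Hox bins. With joined peaks, 5 Hox windows were higher and 1 lower, and 10 Hox bins higher and 3 lower. Spans with 2 kb on each side gave 13 higher Hox genes. Windows of 1 kb gave 1764 higher and 185 lower calls, 3 of the higher in Hox genes and 0 of the lower. Bins of 10 kb gave 2 lower Hox bins, a filter of at least 1 library 3, and a filter of at least 3 libraries 6604 higher and 1631 lower bins in all. The replicate block gave 1 lower Hox span, 1 lower Hox window and 3 lower Hox bins, and same-numbered libraries deviated with correlations of −0.0154 for spans, −0.00806 for windows and 0.0130 for bins, so the numbers were not taken as pairs. Apart from the construction of each alternative, the cause was not tested.

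Leaving out each replicate in turn gave 106 to 2877 higher and 5 to 272 lower spans (Hox genes 0 to 4 and 0), 886 to 3422 higher and 64 to 353 lower windows (Hox genes 3 to 6 and 0) and 3639 to 5694 higher and 515 to 1667 lower bins (Hox bins 2 to 8 and 1). The lone library of a condition was then assumed to vary like the other. For single Hox genes, 459 values kept their side of the threshold, 89 lost a call, 37 gained one and 11 reversed. Of the 459, 29 were uncalled throughout and had the other sign, in 8 genes. With a replicate left out these were Hoxa10 (−0.43 points), Hoxc4 (−0.10 points, −0.0745 kb), Hoxc5 (0.789 points, 0.006 kb), Hoxc6 (−0.006 kb) and Hoxd3 (−0.087 points, −0.151 kb). With 2 libraries a condition and peak lists without read counts, small differences in coverage cannot be resolved, and start windows rest on RefSeq entries for 22 of 39 genes. Taking the start by the cluster's strand, an alternative chosen after seeing the data, gave 8 higher and 2 lower Hox windows, without Hoxc13.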

Other observations

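Set beside fixed tiles of 200 kb across the genome, the HoxC cluster lay among the most covered stretches in both conditions. The 200 kb centred on HoxC held 49.4 and 54.3 kb under peaks in ASC, against 46.9 and 45.0 kb in FISC, and only 8 and 16 tiles held more in ASC, against 7 and 7 in FISC. For HoxA, 76 and 111 tiles held more in ASC, against 167 and 206 in FISC. For HoxD, 5901 and 6054 tiles held more in ASC, against 3525 and 4161 in FISC. The median tile held 0.798 and 0.953 kb in ASC, against 0.313 and 0.260 kb in FISC. HoxA thus stood higher and HoxD lower among the tiles in both ASC libraries than in either FISC library, and these ranks were not tested.

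Mir615, a microRNA gene inside HoxC, lay under a peak over its full length in ASC replicate 2 and in both FISC libraries, and outside any peak in ASC replicate 1.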
